A study of Mus musculus with 6 samples.

Results

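The genes described here are placental growth factor (Pgf) and the vascular endothelial growth factor (VEGF) family in mouse aorta: 9 genes out of the 55335 in the count table. They comprise the ligands Pgf, Vegfa, Vegfb and Vegfc, the receptors Flt1, Kdr and Flt4, and the neuropilins Nrp1 and Nrp2. The family was selected on the level of Pgf, which was higher at 6 months than at 6 weeks in these same libraries. Its difference between ages is therefore given as a description, and nothing is read from tests of it. All 9 genes were found by symbol, each in 1 row, and all 9 passed the filter on low counts.

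The aortas came from wild-type C57BL/6 mice (written c57b6l in the labels), 3 aged 6 weeks (young) and 3 aged 6 months (aged), with 1 RNA library per mouse and no treatment named for either group. The study's methods describe all mice as male and the sample as a short piece of vessel from which the surrounding fat had been dissected. RNA was taken from the whole vessel wall, so fewer cells of a type and less RNA per cell cannot be told apart. Total counts lay between 31049632 and 45832185 per library.

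VEGF family ligands are secreted dimers that bind receptor tyrosine kinases, mostly on endothelial cells. Vegfa signals mainly through Kdr (VEGFR2), the principal receptor for endothelial growth and permeability. Pgf and Vegfb bind Flt1 (VEGFR1), which also binds Vegfa tightly and is made in a soluble form that traps ligand. Vegfc acts through Flt4 (VEGFR3), the receptor of lymphatic growth. Nrp1 and Nrp2 are co-receptors that VEGFs share with class 3 semaphorins. Vegfa is a classical target of hypoxia-inducible factors. Vegfd, the remaining mammalian VEGF ligand, is not one of the 9 genes and was read beside them.

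What makes these ligands a family can be seen in a stretch of 13 codons in the third exon of each gene, which encodes the cysteine pattern shared by VEGFs and the related platelet-derived growth factors. The 39 bases are shown for the 4 ligands and for Vegfd, from the transcript of GENCODE M21 with the longest protein, with the 4 cysteine codons in capitals.
Pgf: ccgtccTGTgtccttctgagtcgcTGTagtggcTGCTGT
Vegfa: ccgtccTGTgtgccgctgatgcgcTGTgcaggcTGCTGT
Vegfb: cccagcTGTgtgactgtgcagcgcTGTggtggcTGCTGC
Vegfc: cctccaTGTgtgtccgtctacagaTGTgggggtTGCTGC
Vegfd: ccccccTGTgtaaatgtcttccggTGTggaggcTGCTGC

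Within this stretch, Pgf shared 31 of 39 bases with Vegfa, 27 with Vegfb and 21 with Vegfc. Vegfc and Vegfd encoded the same amino acid at 11 of 13 codons, the most of any of the 10 pairs, while Pgf and Vegfa had the most bases in common. On GRCm38 (mm10), the stretch of Pgf lies on the minus strand at chr12:85171714-85171752 and that of Vegfa on the minus strand at chr17:46025401-46025439. That of Vegfb is at chr19:6986344-6986382 on the minus strand and that of Vegfc at chr8:54159391-54159429 on the plus strand. That of Vegfd is at chrX:164391700-164391738 on the plus strand.

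The libraries were not alike apart from age. Young replicate 1 had Xist, the RNA that silences an X chromosome in female cells, at 305.6 CPM (CPM is the count scaled to the TMM-normalised library size), against 0.636 or less in the other 5 libraries. Its level of the Y-linked gene Ddx3y was 1.09 CPM, while the other 5 libraries had 44.8 to 65.6 CPM. The clock gene Arntl stood at 49.9 CPM in it and at no more than 8.14 CPM in the others. This library therefore did not match the description of the mice as male. On the first principal component, aged replicate 2 lay at -13.4, within the range of the young libraries (-52.2 to -10.3) and away from the other aged libraries (53.8 and 62.7). Values without these libraries are given where they matter.

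Smooth muscle markers were abundant in every library, at 27985 to 40198 CPM over the 7 genes summed. Endothelial markers summed to 387.5 to 554.5 CPM in 5 libraries and to 1627 CPM in aged replicate 3. None of the 7 smooth muscle markers had a higher fitted level in aged aorta. An unadjusted edgeR p below 0.05 was reached by 4 of 7 smooth muscle, 4 of 6 fibroblast and 7 of 7 macrophage markers. It was also reached by 1 of 9 endothelial, 2 of 5 lymphatic and 2 of 5 tested cardiac markers, and by 10.4% of all genes tested. No adipocyte, Schwann cell, erythroid or mesothelial marker reached it. The fitted level in aged aorta was higher for 8 of 9 endothelial, 5 of 5 lymphatic, 6 of 6 fibroblast and 7 of 7 macrophage markers. Of all 16612 genes tested, 8654 had a higher fitted level. The endothelial sums of aged replicates 1 and 2 (434.7 and 387.5 CPM) lay below every young library (469.6 to 554.5 CPM), and only aged replicate 3 lay above. The sums of the fibroblast and macrophage markers were 1858 to 2856 and 89.2 to 115.7 CPM in young aorta, and 1704 to 6578 and 126 to 385 CPM in aged aorta. White adipocyte markers ranged from 339 to 1219 CPM and brown adipocyte markers from 71.7 to 1867 CPM, both highest in aged replicate 2. Schwann cell markers summed to 11.8 to 30.2 CPM, cardiac to 80.0 to 259 CPM, erythroid to 254 to 574 CPM and mesothelial to 1.02 to 59.7 CPM. None of the markers of these lists was at 0 in all libraries.

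Pgf lies on chromosome 12 of GRCm38 from 85166635 to 85177790, on the minus strand. It was counted 126, 141 and 104 times in young replicates 1, 2 and 3, which is 2.60, 4.05 and 3.03 CPM. In aged replicates 1, 2 and 3 it was counted 356, 530 and 428 times, which is 10.7, 14.1 and 15.2 CPM. The lowest aged library was 2.64 times the highest young library, so the groups did not overlap. The means were 3.23 ± 0.746 CPM (SD, n = 3) in young and 13.3 ± 2.31 CPM (SD, n = 3) in aged aorta, a ratio of 4.12. The fitted log2 fold change was 2.04 with a standard error of 0.27. For comparison, 1.11% of the 16612 genes tested had a fitted log2 fold change of at least 2, and 7.74% had all aged libraries above all young libraries. Leaving out young replicate 1 gave 1.92, and leaving out both young replicate 1 and aged replicate 2 gave 1.87.

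The level of Pgf was read against the cell type markers of the same libraries. Aged replicate 2 had the lowest fibroblast sum of all libraries (1704 CPM) and the lowest endothelial sum (387.5 CPM), with a macrophage sum of 126 CPM. Pgf was at 14.1 CPM in it. In aged replicate 1 and aged replicate 3 the fibroblast sums were 6578 and 4830 CPM, with Pgf at 10.7 and 15.2 CPM. Brown fat markers peaked in aged replicate 2, and in young replicate 2, the young library with most of them (561 CPM), Pgf was 4.05 CPM. The part of any of these cell types in the level of Pgf was not tested.

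**Figure D1:**
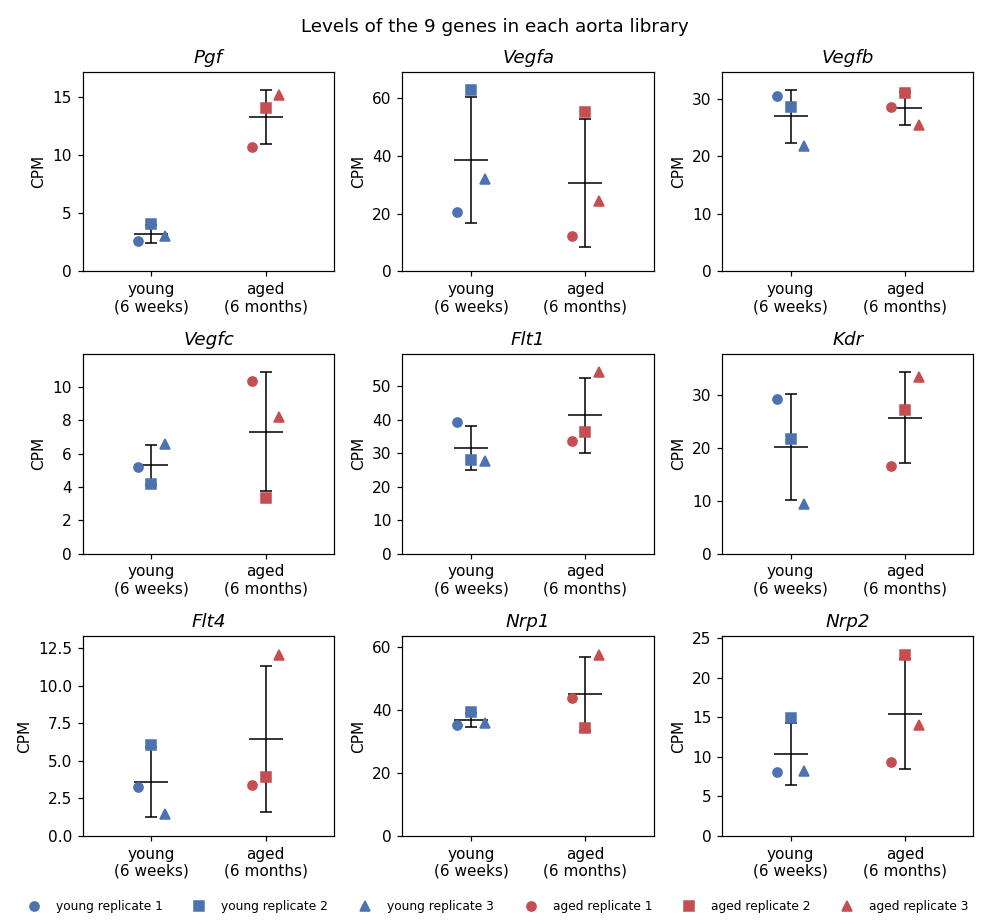
CPM of each of the 9 genes (vertical axes start at 0) in the 3 young and 3 aged libraries. Points are single libraries, long bars are means and whiskers are SDs (n = 3). Pgf lies between 2.60 and 4.05 CPM in young and between 10.7 and 15.2 CPM in aged libraries, while the groups overlap for the other 8 genes.

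The other ligands differed from Pgf and from each other in how they varied. Vegfa, on chromosome 17 from 46016993 to 46032369, was at 20.6, 62.9 and 32.1 CPM in young replicates 1, 2 and 3. In aged replicates 1, 2 and 3 it was at 12.3, 55.1 and 24.4 CPM. It spanned 5.13-fold over the 6 libraries, and replicate 2 was highest in both age groups. The group means of 38.5 ± 21.8 and 30.6 ± 22.1 CPM (SD, n = 3 each) differed by less than either SD, with a log2 fold change of -0.33 and a standard error of 0.59. Its direction turned without young replicate 2 (0.23) and without aged replicate 1 (0.048), and it was -1.07 without aged replicate 2, -0.62 without young replicate 1 and -0.19 without aged replicate 3. Without young replicate 1 and aged replicate 2 together it was -1.37 with a standard error of 0.46. Vegfa and the white adipocyte sum, of which Plin4 made up 80.9% on average, shared their 2 highest libraries and their lowest. Young replicate 2 and aged replicate 2 were the 2 highest for both, with 809 and 1219 CPM of adipocyte markers, and aged replicate 1 was lowest for both. The part of residual fat in the level of Vegfa was not tested.

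Vegfb, on chromosome 19 from 6982473 to 6987651, is a ligand of Flt1 expressed widely in heart, muscle and fat. It was at 30.5, 28.5 and 21.7 CPM in young and at 28.6, 31.0 and 25.4 CPM in aged replicates 1, 2 and 3. It was the steadiest of the 9 genes, with a span of 1.43-fold, and its log2 fold change was 0.073 with a standard error of 0.18. With 1 library left out this lay between -0.051 (without young replicate 3) and 0.18 (without young replicate 1). The median span was 1.75-fold over the 7297 tested genes whose mean CPM lay within the range of the family.

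Vegfc, on chromosome 8 from 54077606 to 54187096, was at 5.20, 4.17 and 6.59 CPM in young and at 10.3, 3.37 and 8.21 CPM in aged replicates 1, 2 and 3. Aged replicate 2 was the lowest of all libraries and the other aged libraries were the 2 highest, so the groups overlapped. The log2 fold change of 0.46 (standard error 0.42) was 0.12 without aged replicate 1 and 0.80 without aged replicate 2. For both Vegfc and the fibroblast sum, aged replicate 1, aged replicate 3 and young replicate 3 were the 3 highest in that order, and aged replicate 2 was lowest. Vegfd, which was read beside the family, was at 18.6, 19.9 and 41.8 CPM in young and at 81.0, 23.1 and 52.8 CPM in aged replicates 1, 2 and 3. It had the same 3 highest libraries, but was lowest in young replicate 1, with aged replicate 2 above young replicates 1 and 2. Its log2 fold change was 0.97 with a standard error of 0.49, and its adjusted p from edgeR was 0.542. The part of fibroblast content in both ligands was not tested.

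**Figure D2:**
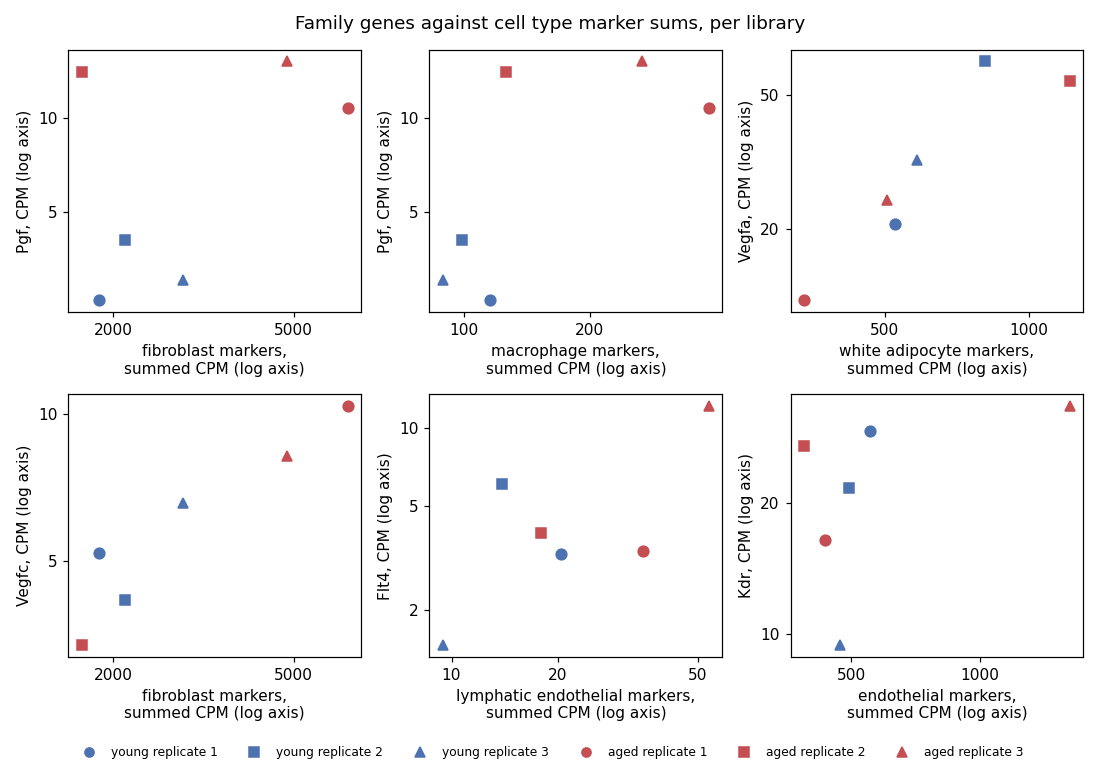
Level of a family gene (vertical, CPM, log axis) against the summed CPM of a marker list (horizontal, log axis) in the 6 libraries. In aged replicate 2 the fibroblast sum is 1704 CPM and Pgf is at 14.1 CPM, in aged replicate 1 the fibroblast sum and Vegfc are both highest, and Vegfa is highest in the 2 libraries with most white adipocyte markers.

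The receptors overlapped between ages. Flt1, on chromosome 5 from 147561604 to 147726011, was at 39.3, 28.0 and 27.7 CPM in young and at 33.5, 36.3 and 54.2 CPM in aged replicates 1, 2 and 3. Its log2 fold change of 0.38 (standard error 0.24) was 0.14 without aged replicate 3 and 0.58 without young replicate 1. Kdr, on chromosome 5 from 75932827 to 75978458, was at 29.2, 21.6 and 9.41 CPM in young and at 16.5, 27.1 and 33.4 CPM in aged replicates 1, 2 and 3. Young replicate 3 stood lowest, and the log2 fold change of 0.35 had a standard error of 0.43. It was 0.023 without young replicate 3, 0.12 without aged replicate 3, 0.59 without aged replicate 1 and 0.74 without young replicate 1.

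Flt4, on chromosome 11 from 49609263 to 49652739, was the least counted receptor, with 50 to 341 counts per library. It was at 3.28, 6.06 and 1.46 CPM in young and at 3.37, 3.95 and 12.1 CPM in aged replicates 1, 2 and 3. The range of 8.28-fold over the 6 libraries was the widest of the 9 genes, and the log2 fold change of 0.84 (standard error 0.65) became 0.026 without aged replicate 3, 0.48 without young replicate 3 and 1.45 without young replicate 2. The sum of 5 lymphatic markers, 62.1% of it Lyve1 on average, had the same ends. It was highest in aged replicate 3 (53.8 CPM) and lowest in young replicate 3 (9.44 CPM). Between these ends the orders differed, since young replicate 2 was the second highest for Flt4 with a lymphatic sum of 13.9 CPM, and aged replicate 1 was the second highest for that sum (35.0 CPM) with Flt4 at 3.37 CPM. The part of lymphatic content in the level of Flt4 was not tested. Prox1, the transcription factor that defines lymphatic endothelium, did not share the ends of Flt4. It was highest in young replicate 1 (1.14 CPM) and lowest in young replicate 2 (0.201 CPM). Lyve1, Ccl21a and Mmrn1 shared both ends, and Reln only the upper.

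Aged replicate 3 was the library with most endothelial RNA, and the receptors took part in this unequally. Pecam1, an adhesion molecule of endothelial junctions, was there 3.86 times the highest of the other 5 libraries. Nos3, which makes nitric oxide in endothelium, was 4.03 times and the angiopoietin receptor gene Tek 3.41 times that level. The same ratio was 1.38 for Flt1, 1.14 for Kdr and 1.99 for Flt4. Among the endothelial markers it ranged from 0.872 for Robo4 and 1.04 for Erg to the value of Pecam1. These ratios compare 1 library with the others and have no replicate check.

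Nrp1, on chromosome 8 from 128358604 to 128503363, was at 35.3, 39.4 and 35.8 CPM in young and at 43.7, 34.1 and 57.6 CPM in aged replicates 1, 2 and 3. The young libraries spanned 1.12-fold and the aged libraries 1.69-fold, with aged replicate 2 below all others. Nrp2, on chromosome 1 from 62703285 to 62818695, was at 8.03, 14.9 and 8.19 CPM in young and at 9.30, 23.0 and 14.0 CPM in aged replicates 1, 2 and 3. As for Vegfa, replicate 2 was highest in both groups. The log2 fold changes were 0.29 (standard error 0.21) for Nrp1 and 0.57 (standard error 0.39) for Nrp2. That of Nrp1 was 0.080 without aged replicate 3 and 0.46 without aged replicate 2. That of Nrp2 was 0.17 without aged replicate 2 and 0.94 without young replicate 2. Without young replicate 1 and aged replicate 2 together, Nrp2 was at 0.020. No exon of the 9 genes shared bases with another gene in GENCODE M21 except Nrp1, which holds the microRNA gene Mir1903 on its own strand over 0.818% of its exon bases.

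In the fit of edgeR's quasi-likelihood test over all genes, 0 of the 9 genes passed an adjusted p of 0.05, where the share of all genes called was 0% (0 of 16612). At an unadjusted p below 0.05, 1 of the 9 passed (Pgf), beside 10.4% of all genes (1723). DESeq2 called 1 of the 9 (Pgf) and 2.26% of all genes with an adjusted p. Leaving out aged replicate 2, edgeR also called Pgf. Since this contrast chose the family, nothing is read from these counts. Of the 9 genes, 1 had all aged libraries above all young libraries and 0 had all below, against 8.78% of all genes that lay entirely below. The fitted change of 8 genes was positive and that of Vegfa negative.

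**Figure D3:**
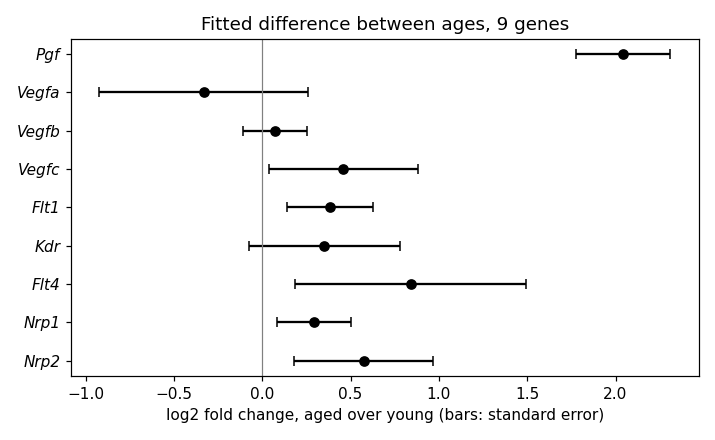
Fitted log2 fold change of aged over young aorta (horizontal) for each of the 9 genes, with whiskers of 1 standard error. Pgf is at 2.04, and the other genes lie between -0.33 (Vegfa) and 0.84 (Flt4).

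The levels of the 9 genes were then compared with each other on FPKM, which divides each count by gene length, over all 6 libraries. The order of levels did not enter the choice of the family. Vegfb was the highest of the 9 genes in every library, at 12.8 to 18.1 FPKM with a median of 15.9. Vegfa followed with a median of 5.99 FPKM and a range of 2.40 to 14.3. Nrp1 was at a median of 3.73 FPKM. Then came Flt1, Vegfc, Kdr and Pgf with medians of 2.21, 2.35, 2.46 and 2.24 FPKM. Nrp2 had a median of 0.815 FPKM and Flt4, the lowest, of 0.392.

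Of the 36 pairs of genes, 24 differed at an adjusted p of 0.0469 each (exact two-sided paired permutation test of log2(FPKM + 0.1) over the 6 libraries of both ages, Benjamini-Hochberg over 36 pairs). That is the value given by the smallest unadjusted p that 6 pairs allow, 0.03125. Vegfb exceeded Vegfa by 1.30 ± 0.89 on the log2 scale (SD, n = 6) and Nrp1 exceeded Flt1 by 0.63 ± 0.26 (SD, n = 6), both in 6 of 6 libraries. Nrp1 exceeded Nrp2 by 1.92 ± 0.60 (SD, n = 6). Neighbours in the order whose difference was smaller than its SD were Vegfa and Nrp1, Flt1 and Vegfc, Vegfc and Kdr, and Kdr and Pgf. Nrp2 exceeded Flt4 by 0.85 ± 0.73 (SD, n = 6) in 5 of 6 libraries, with an adjusted p of 0.0865 in the exact permutation test. Flt1 and Kdr differed by 0.15 ± 0.44 (SD, n = 6), with an adjusted p of 0.581 in the exact permutation test.

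Pgf was the gene whose place differed most between ages in this order, as its choice implies. By mean log2 level it was the seventh of 9 in young aorta and the third in aged aorta. Its FPKM was 0.843, 1.35 and 1.02 in young and 3.14, 4.13 and 4.20 in aged replicates 1, 2 and 3. Divided by the FPKM of its receptor Flt1, it was 0.305 to 0.669 in young and 1.30 to 1.80 in aged libraries. The FPKM were computed with gene lengths close to all exon bases of a gene, 13504 for Flt1, so that a large share of short transcripts would lower the level stated for a gene. The counts do not separate the soluble form of Flt1 from the membrane form.

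**Figure D4:**
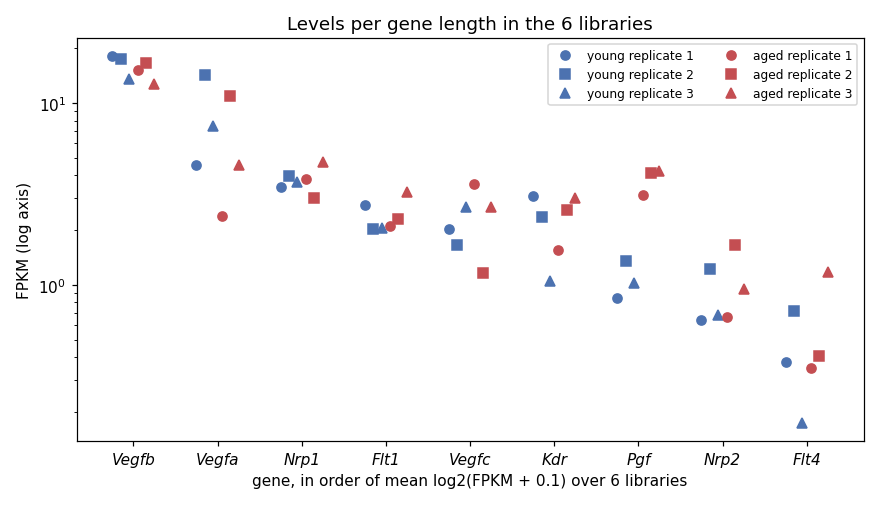
FPKM (vertical, log axis) of the 9 genes in each of the 6 libraries, with genes placed from the highest to the lowest mean log2 level. Vegfb is the highest gene in each library at 12.8 to 18.1 FPKM, and Pgf moves from 0.843 to 1.35 FPKM in young to 3.14 to 4.20 FPKM in aged libraries.

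Among the ligands with Vegfd, the summed FPKM, not TMM-normalised, was 39.2 ± 5.55 in young and 45.3 ± 6.71 in aged aorta (SD, n = 3 each). The share of Pgf in it was 2.57%, 3.16% and 2.43% in young and 5.92%, 10.08% and 10.04% in aged replicates 1, 2 and 3. Vegfb and Vegfd together made up most of the ligand transcripts. Vegfb held 28.7% to 55.1% and Vegfd 18.9% to 54.1% of the sum, and Vegfa 4.53% to 33.4%. Among the receptors, Flt1 held 49.0% ± 12.1 and 46.6% ± 5.19, and Kdr 42.5% ± 9.35 and 42.6% ± 5.36, in young and aged aorta (SD, n = 3 each). Flt4 held 5.34% to 15.9%. The make-up of the receptors thus differed between ages by less than the spread between libraries.

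**Figure D5:**
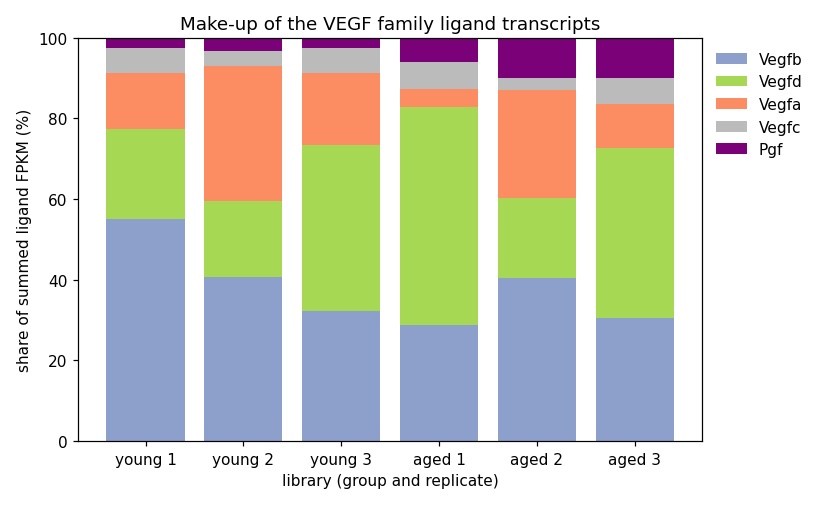
Share of the summed FPKM of 5 ligands (vertical, percent) in each library, stacked by gene. The share of Pgf is 2.43% to 3.16% in young and 5.92% to 10.1% in aged libraries, and the share of Vegfa is largest in replicate 2 of both groups.

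The other genes of the pathway were read from lists by role, 107 genes in all with Vegfd, each of which passed the filter. None was called by edgeR at an adjusted p below 0.05, where 8 higher and 8 lower genes of the 107 had an unadjusted p below 0.05, against 10.4% of all genes. DESeq2 called 4 of the 107, against 2.26% of all genes. Of these, Angpt4, an angiopoietin, Hif3a, a hypoxia-inducible factor subunit, and the small heat shock protein gene Hspb1 were higher, and Sema3a, a semaphorin that binds Nrp1, was lower in aged aorta. Without aged replicate 2, edgeR called Angpt4 alone. The median log2 fold change of the 107 genes was 0.11, against 0.02 for all genes tested.

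Downstream of the receptors, 41 genes of kinases, adaptors and effectors had a median log2 fold change of 0.094, with 4 higher and 2 lower at an unadjusted p below 0.05 (all genes 10.4%). The most abundant were Cdc42, Hspb1 and Rac1. Hspb1, phosphorylated downstream of Kdr, was at 124, 126 and 152 CPM in young and at 178, 390 and 315 CPM in aged replicates 1, 2 and 3 (log2 fold change 1.14, adjusted p 0.377 by edgeR and 0.0238 by DESeq2). Cdc42 and Rac1, small GTPases of cell migration, had log2 fold changes of 0.055 and 0.16. Nos3 was at 24.9 to 25.7 CPM in young aorta, and at 28.5, 37.5 and 151 CPM in aged replicates 1, 2 and 3, so its mean rests on aged replicate 3.

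Genes that VEGF induces in endothelium numbered 13, with 0 higher and 2 lower at an unadjusted p below 0.05 (all genes 10.4%). Of the most abundant, the early growth response gene Egr1 and the nuclear receptor gene Nr4a1 had log2 fold changes of -0.70 and -0.69, and tissue factor (F3) of 0.87. Rcan1, a feedback inhibitor of calcineurin, was at 24.7 to 32.6 CPM in young and at 29.2 to 35.4 CPM in aged aorta. Dll4, the Notch ligand of endothelial tip cells, was at 6.87 CPM in young replicate 1 and at 1.67 to 2.62 CPM in the other 5 libraries. Esm1, a proteoglycan of tip cells, was at 0.603 to 3.75 CPM. None of these 6 had an adjusted p below 0.428 by edgeR.

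The inhibitors of VEGF signalling and angiogenesis comprised 12 genes with 2 higher and 0 lower at an unadjusted p below 0.05 (all genes 10.4%). Timp3, which blocks binding of VEGF to Kdr, was at 1196 to 1371 CPM in young and at 1310 to 2084 CPM in aged aorta. Col18a1, the source of endostatin, and Ccn2, which binds VEGF, had log2 fold changes of -0.24 and -0.081. Thbs1, an antiangiogenic matrix protein, was at 31.0 CPM in aged replicate 3 and at 9.45 and 10.7 CPM in the other aged libraries, against 17.1 to 23.0 CPM in young aorta.

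Among 9 hypoxia regulators, 1 was higher and 2 were lower at an unadjusted p below 0.05 (all genes 10.4%). Hif1a, the oxygen-regulated subunit that drives Vegfa, was at 98.8 to 103.6 CPM in young and at 71.5 to 82.2 CPM in aged aorta, without overlap (log2 fold change -0.42, standard error 0.14, adjusted p 0.403 by edgeR). Epas1, the related subunit that is abundant in endothelium, was at 120.4 to 191 CPM in young and at 126, 205 and 325 CPM in aged replicates 1, 2 and 3. Hif3a was at 1.22, 2.36 and 0.699 CPM in young and at 1.93, 12.99 and 6.80 CPM in aged replicates 1, 2 and 3, with overlap (log2 fold change 2.35, standard error 0.73, adjusted p 0.390 by edgeR and 0.0366 by DESeq2). Egln1, an oxygen-sensing hydroxylase, had a log2 fold change of 0.058. Of 13 targets of hypoxia other than Vegfa, 0 passed an unadjusted p of 0.05 in edgeR (all genes 10.4%) and DESeq2 called 0. The glycolytic genes Ldha and Pgk1 were highest in aged replicate 2, at 417 and 193 CPM. Ndrg1 was highest in aged replicate 3, at 139.8 CPM, and the glucose transporter gene Slc2a1 stayed between 30.6 and 44.0 CPM.

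The list of class 3 semaphorins and plexins held 12 genes. Their median log2 fold change was -0.13, with 0 higher and 2 lower at an unadjusted p below 0.05 (all genes 10.4%). The most abundant were Sema3c, Sema3d and Sema3f, with log2 fold changes of -0.075, 0.27 and -0.22. Sema3d did not overlap between ages, at 67.3 to 75.0 CPM in young and 80.0 to 92.1 CPM in aged aorta, with an adjusted p of 0.545 by edgeR. Sema3a was at 11.2, 17.4 and 20.7 CPM in young and at 6.17, 7.34 and 3.36 CPM in aged replicates 1, 2 and 3 (log2 fold change -1.54, standard error 0.36, adjusted p 0.372 by edgeR and 0.00794 by DESeq2). Plxnd1 and Sema3g, expressed in endothelium, had log2 fold changes of -0.18 and 0.59.

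In the angiopoietin and Tie group of 6 genes, 1 was higher at an unadjusted p below 0.05 (all genes 10.4%). Angpt4 was at 5.14, 5.69 and 5.36 CPM in young and at 25.3, 9.28 and 17.6 CPM in aged replicates 1, 2 and 3, without overlap (log2 fold change 1.69, standard error 0.36, adjusted p 0.360 by edgeR and 0.00221 by DESeq2). Angpt2, which antagonises Tek, was at 63.6 to 124.8 CPM in young and at 41.9 to 83.9 CPM in aged aorta. Tek, Tie1 and the phosphatase gene Ptprb were all highest in aged replicate 3, at 123, 150 and 253 CPM. Ptprb was also at 63.8 CPM in young replicate 3 against 14.4 and 15.3 CPM in the other young libraries.

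The genes most like Pgf within the age groups were found by the Pearson correlation of log2 CPM after the mean of each group was subtracted, over 6 libraries and 14084 genes of at least 1 CPM. They were Fpgs (0.997), Ager (0.996), Gm42715 (0.996), Abhd18 (0.996) and Dnase1l2 (0.993). These values are a description, since the libraries share depth and composition and 6 points leave few degrees of freedom. None of these genes shared the difference of Pgf between ages, with log2 fold changes of -0.68 (Gm42715) to 0.41 (Ager).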

How the data were processed

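RNA of aorta from 3 young and 3 aged mice was sequenced with single-ended reads of 50 cycles. The authors deposited raw counts per gene, and FPKM normalised to gene length and library. The submitters' processing notes name mm10; aligner and counting tool are not given in the sources used here. Counts were filtered (edgeR 4.0.16 filterByExpr, minimum count 10, minimum total 15), TMM-normalised and fitted with edgeR's quasi-likelihood model without covariates (R 4.3.3), with Benjamini-Hochberg adjustment over 16612 genes. CPM was taken from edgeR with the TMM-normalised library sizes. The standard error of a log2 fold change is its size divided by the square root of the F statistic. Whether counting used strand is not given in the sources used here. The test was also run on simulated counts with the same dispersion for all genes. That setting is simpler than these libraries, so it does not show how many changes the test misses here. Nothing in the labels pairs the mice, and the p-values between ages rest on the spread between mice of the same age. The permutation test of levels takes all 6 libraries together, so the SDs of pairs with Pgf also hold its difference between ages.

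The 9 genes and the lists were chosen with earlier results of these data known. Beside the 9 genes, those named are the 3 most abundant tested genes of each list, 13 genes fixed for their role, and the 5 most like Pgf. Sema3a, Angpt4 and Hif3a were named after their values were seen. The alternatives were RLE size factors, 2 other filters, the replicate number as a block, DESeq2 1.42.0, limma 3.58.1 on log2 FPKM, and each library left out. Leaving out young replicate 1 and aged replicate 2 together was added after the data were seen. Sequences and coordinates are from GENCODE M21 (GRCm38), in which 55154 of the 55335 gene identifiers were found. Protein sequences were not used here.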

Additional observations from a re-analysis of the deposited data

How the results depend on the processing

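The log2 fold change of Pgf was positive under every alternative run, at 1.22 with limma on log2(FPKM + 1), where the pseudocount shrinks low genes, and at 1.92 to 2.25 with 1 library left out. Of the values of the 9 genes under alternatives, 124 moved by less than the SD between replicates and 2 by more, that one and Vegfa without young replicate 1 and aged replicate 2 (-1.37). Limma on FPKM moved the median of all genes to -0.12 and -0.19, from 0.02, and turned Vegfb to -0.13 and -0.14, which was also negative without young replicate 3 (-0.051). The sign of Vegfa changed to 0.23 without young replicate 2 and to 0.048 without aged replicate 1. DESeq2 called 338 genes in all and 4 of the pathway lists. With 1 library left out edgeR called 0 to 110 genes in all and 0 to 1 of the pathway lists, the higher counts without aged replicate 2, and with both young replicate 1 and aged replicate 2 left out 0 and 0. The cause was not tested. Adding a block for the replicate number left 0 genes called in all, 0 in the lists and 0 of the 9, with Pgf at 2.05. At an unadjusted edgeR p below 0.05 there were 1782 genes, among them 3 of the 9, against 1 of the 9 without the block. With the block Vegfa was at -0.44 (standard error 0.16, against 0.59 without it) and Nrp2 at 0.54 (0.20, against 0.39). Deviations of same-numbered libraries correlated at 0.079, 0.117 and 0.096, so the numbers are not taken to pair the mice. The number of pairs of levels that differed stayed at 24 under other pseudocounts and on CPM. It was 0 with any 1 library left out, since the smallest p of the exact permutation test with 5 libraries is 0.0625. On CPM, which does not divide by gene length, the order itself was another. Vegfb (21.7 to 31.0 CPM) was there below Nrp1 (34.1 to 57.6 CPM) in every library. It was above Vegfa only in young replicate 1 and aged replicates 1 and 3. The lowest count of any of the 9 genes in a library was 50, for Flt4.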
